A study of Mus musculus with 6 samples.

Results

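The (-)/(+) iPSCs are mouse induced pluripotent stem cells reprogrammed without 3i and then maintained with 3i, and they make up 3 of the 6 samples of the series (clones 1, 2 and 3, with 1 array each). 3i is a mixture of inhibitors of GSK3β (CHIR99021), of MEK in the ERK pathway (PD184352) and of the FGF receptor (SU5402). The starting cells were embryonic fibroblasts of Nanog-GFP-IRES-Puro transgenic mice, which received Oct3/4, Sox2, Klf4 and c-Myc by retrovirus together with a dsRed virus that reports on silencing of the transgenes. The cells were grown on SNL feeder cells in serum with LIF, and 3i was added only once colonies had been picked. Each line is a single clone. The methods give a range of passages for all experiments but not the passage of each clone on its array, and the embryo a clone came from and any removal of feeder cells before RNA extraction are not given for the arrays. Total RNA was hybridised to Affymetrix Mouse Genome 430 2.0 arrays, and the values are MAS 5.0 signals, a linear intensity for each probe set. The question asked here is how far clones kept in the same medium differed from one another. Genes were selected on their mean signal over these 3 arrays, which had to be above 500, and 10137 of 45037 non-control probe sets (22.5%) met that rule. They held 6088 of the 18193 genes with 1 symbol on the array (33.5%), each represented by its brightest probe set.

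Mouse pluripotent cells are held in a naive state by a network of transcription factors around Oct3/4, Sox2 and Nanog, and 3i favours that state by lowering FGF-ERK signalling and raising β-catenin activity. Clones made from the same kind of fibroblast can still differ in DNA methylation, in chromosome content and in the share of cells that pass through short-lived states. Germline genes, imprinted genes and genes of the 2-cell embryo are the classes best known for differing between pluripotent lines. On a bulk array a lower signal can come from fewer cells that express a gene or from less RNA in each cell, and these cannot be told apart. With 1 array per clone, a difference between clones and a difference between arrays cannot be told apart either, so the values below are descriptions and carry no test. Probe sets bind their targets with different strength, so signals are compared between clones and not between genes.

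The 3 arrays had been scaled alike by the authors, with a trimmed mean of 500 on each. Their medians over all probe sets were 75.7, 75.4 and 74.3 in clones 1, 2 and 3. The numbers of probe sets above 500 were 10181, 10067 and 10108. The ratio of 3′ to 5′ signal was between 0.825 and 0.848 for Gapdh and between 1.61 and 1.75 for β-actin, so the arrays were close to each other in this sign of RNA quality. The rule on mean signal separated probe sets with nearly equal values. The probe sets of Kmt2e (500.2), Pitpnb (500.2) and Pcm1 (500.3) lay just above 500, and those of Ccdc58 (499.9), Guca1a (499.9) and Tm2d2 (499.8) just below it.

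All 3 clones carried the profile of pluripotent cells. All 18 measured genes of the core pluripotency list had a mean signal above 500. Pou5f1, which encodes Oct3/4, gave signals of 8034, 8788 and 9793 in clones 1, 2 and 3 (8872 ± 882, SD, n = 3). Sox2 gave 13891, 15692 and 13222 (14268 ± 1278), and Nanog gave 14402, 12676 and 13966 (13681 ± 898). These 3 genes differed by at most 1.22-fold between clones. Of the primed pluripotency list, which holds genes of the later epiblast, 1 of 11 measured genes was above 500, the DNA methyltransferase Dnmt3b (3852, 3606 and 4787). The mesoderm and primitive streak list had 0 of 12 measured genes above 500, the neural list 1 of 17 (Stmn2), the trophectoderm list 1 of 13 (Tfap2c) and the endoderm list 2 of 17 (Lamb1 and Lamc1). Of the Y-linked list, Eif2s3y (4164, 4769 and 3880) and Uty (530, 680 and 623) were above 500, while Xist, the RNA of the inactive X, gave between 85 and 93 on its brightest probe set. Of the other Y-linked genes with a place on the list, Kdm5d gave 356, 213 and 494, and Usp9y, Zfy2 and Sry were below 100 in every clone.

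Of 35 measured genes of the fibroblast and feeder list, 13 had a mean signal above 500. The summed signal of the 35 genes was 56471, 66856 and 71799 in clones 1, 2 and 3. Fibroblast genes were uneven in level. Col1a1 (between 86 and 101), Postn (85 to 135), Twist1 (126 to 138) and Thy1 (229 to 351) were below 500, whereas the collagen gene Col1a2 gave 1441, 1701 and 2096, the matrix protein Sparc 3899, 3679 and 3309, and the protease inhibitor Timp1 1029, 1504 and 1458. The intermediate filament gene Vim gave 10442, 15054 and 13196, and pluripotent cells also express it. S100a4, a calcium-binding protein of mesenchymal cells, gave 2672, 3326 and 5229. None of the 13 genes had a spread above 1 (2.17% of all genes), and clone 1 was lowest in 9 of them, against 39.5% of all genes. The part of feeder cells in any difference between clones was not tested.

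The spread of a gene is its highest minus its lowest log2(signal + 16) over the 3 clones, so that a spread of 1 is a 2-fold difference. The median spread over the 6088 genes was 0.26 (a 1.20-fold difference), and the middle 50% of genes lay between 0.15 and 0.42. It was above 0.5 in 1039 genes (17.1%), above 1 in 132 genes (2.17%), above 2 in 12 genes and above 3 in 3 genes. Over probe sets, 221 of 10137 had a spread above 1 (2.18%). Of these, 190 were annotated to 1 gene, 13 to several genes and 18 to none. Spread was larger at low signal: its median was 0.31 for probe sets with a mean between 500 and 1000 and 0.14 for those above 10000. The 5 genes with the smallest spread were Acin1, Ccn1, Immp1l, Snrnp40 and Tufm, each at 0.01. Acin1 gave 1583, 1577 and 1584. These are values of the brightest probe sets, and second probe sets had spreads of 0.13 in Acin1 and 0.41 in Ccn1. A gene can pass the rule on its mean through a single high clone. All 3 clones were above 500 in 92 of the 132 genes with a spread above 1, and at least 1 clone was at or below 500 in the other 40.

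**Figure D1:**
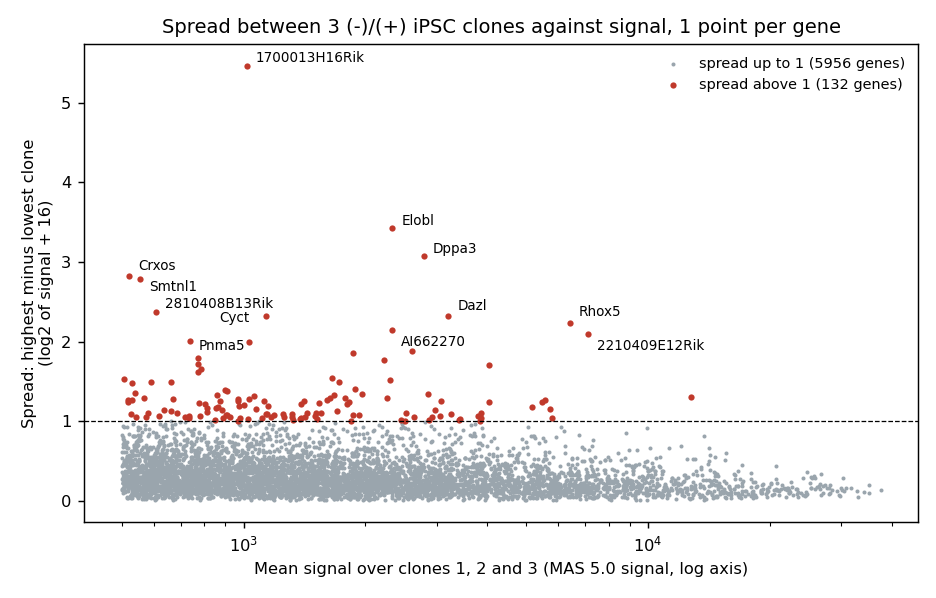
Spread between the 3 (-)/(+) clones (vertical axis, log2) against mean signal (horizontal log axis), with 1 point for each of 6088 genes; the dashed line marks a spread of 1. The 132 genes above the line are spread over most signal levels, and the 12 genes above 2 are named.

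Clones 1 and 2 lay farthest apart and clone 3 between them. Clone 1 was more than 2-fold above clone 2 at 110 probe sets (1.09% of 10137) and clone 2 above clone 1 at 61 (0.602%). Clone 1 was above clone 3 at 34 (0.335%) and clone 3 above clone 1 at 17 (0.168%). Clone 2 was above clone 3 at 18 (0.178%) and clone 3 above clone 2 at 57 (0.562%). The median absolute difference on the log2 scale was 0.19 between clones 1 and 2, against 0.14 for each of the other pairs. Among the 132 genes, the middle value belonged to clone 3 in 100 (75.8%), against 47.3% of all 6088 genes. Clone 1 was highest and clone 2 lowest in 60 of them, and clone 2 was highest and clone 1 lowest in 40. Of the 12 genes with a spread above 2, 11 had clone 1 highest and clone 2 lowest, and the exception was 2810408B13Rik. Among the 12, Dppa3, Dazl, Rhox5, AI662270 and 2210409E12Rik were above 500 on every array. The others had a clone at or below 500 and passed the rule on the mean through their higher signals. Over all 6088 genes, clone 1 was highest in 34.6% and lowest in 39.5%, clone 2 highest in 36.3% and lowest in 36.9%, and clone 3 highest in 29.1% and lowest in 23.6%. Clone 3 was the clone farthest from the other two in 10 of the 132 genes, clone 1 in 60 and clone 2 in 62.

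Where a gene had a second probe set above 500, this gave a reading from other probes on the same arrays. Of 31 such genes with a spread above 1, 25 (80.6%) had the same order of the clones on the second probe set. A spread above 1 was found there too in 15 (48.4%). Over all 2113 genes with a second probe set the order was the same in 42.5%, and the second spread was above 1 in 1.89%. Over the 1111 genes with a spread up to 0.25 the order was the same in 34.2%. Klhl13, an X-linked ubiquitin ligase adaptor, gave 16648, 6738 and 14976 on its brightest probe set and 5934, 1216 and 4625 on the second. The order differed in 6 genes. Of these, Marcks gave 2612, 1103 and 3183 on its brightest probe set (spread 1.52) and 2024, 2445 and 2423 on the next, and clone 2 was highest rather than lowest on all of its other probe sets. The second probe sets of Zfp991 and Kif22 had spreads of 0.07 and 0.08.

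The largest spread belonged to 1700013H16Rik, an X-linked gene, with signals of 2604, 43 and 403 in clones 1, 2 and 3 (1017 ± 1387, spread 5.46). The value in clone 2 was below the median of all probe sets on that array. Elobl, an elongin B-like gene, gave 4504, 405 and 2090 (spread 3.42). Dppa3, the maternal factor Stella that protects imprints in the zygote, gave 5759, 672 and 1938 (2790 ± 2648, spread 3.07). In each of these 3 genes clone 1 was more than 2-fold above clone 3 and clone 2 was lowest. Crxos, a homeobox gene of the early embryo, gave 1075, 137 and 348, with 118, 65 and 66 on a dimmer probe set, and Smtnl1 gave 1138, 151 and 378. Cyct, the testis form of cytochrome c, gave 2202, 428 and 771. AI662270 gave 3958, 883 and 2143, and its second probe set gave 2786, 548 and 1562. 2810408B13Rik showed the other order, with 236 in clone 1, 1289 in clone 2 and 296 in clone 3. A pair of probe sets shared by gene copies on the X chromosome lay in the same range. The probe set of Xlr4a, Xlr4b and Xlr4c gave 2641, 58 and 422 (spread 5.16), and that of Xlr3a, Xlr3b and Xlr3c gave 3288, 182 and 509 (spread 4.06). These copies cannot be separated on this array. The probe set of Tuba3a and Tuba3b, testis tubulins, gave 2434, 775 and 948.

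**Figure D2:**
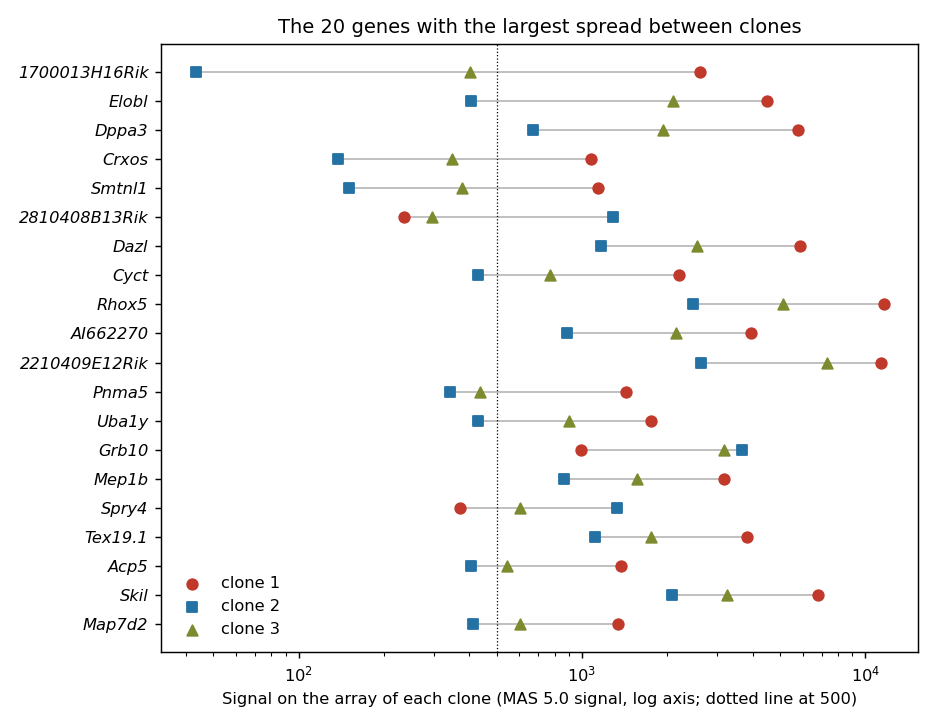
Signal on a log axis of the 20 genes with the largest spread, ordered by spread, with a circle, square and triangle for clones 1, 2 and 3 and a dotted line at 500. Clone 1 is highest and clone 2 lowest in 17 of the 20 genes, and the order is turned in 2810408B13Rik, Grb10 and Spry4.

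Among the germline genes silenced by promoter methylation, 7 of 24 measured genes had a mean signal above 500. Of the 7, 3 had a spread above 1 (42.9%, against 2.17% of all genes). The median spread of the 7 was 0.88, against 0.26 over all genes. Dazl, an RNA-binding protein of germ cells, gave 5900, 1166 and 2546 (3204 ± 2435, spread 2.32), and its second probe set gave 4284, 784 and 1685. Rhox5, a homeobox gene of the X-linked Rhox cluster, gave 11630, 2464 and 5107 (6400 ± 4718, spread 2.23). Tex19.1, which restrains transposons in germ cells, gave 3820, 1108 and 1750 (2226 ± 1417, spread 1.77). In all 3 genes clone 1 was more than 2-fold above both other clones. Mael, a piRNA factor, gave 570, 373 and 702. Rnf17 and Sycp3, of the germ granule and the synaptonemal complex, had the smallest spreads of the list, 0.46 and 0.48. Clone 1 was highest in 6 of the 7 genes (34.6% of all genes) and clone 2 lowest in 6 (36.9% of all genes), and this was so under each scaling of the arrays that was tried. With the threshold on mean signal at 250 the list had 11 genes. Clone 1 was then highest in 10, clone 2 lowest in 7 and clone 3 lowest in 4. The promoters of Dazl, Rhox5 and Tex19.1, the genes of this list with a spread above 1, and of 1700013H16Rik, the gene with the largest spread, are shown. All 4 had clone 1 highest and clone 2 lowest. Each line holds the 250 bases upstream of the RefSeq start site (GRCm38.p6), 5′ to 3′ on the gene's strand, with CG dinucleotides, the sites of DNA methylation, in capitals.
Dazl, chr17:50293621-50293870, minus strand: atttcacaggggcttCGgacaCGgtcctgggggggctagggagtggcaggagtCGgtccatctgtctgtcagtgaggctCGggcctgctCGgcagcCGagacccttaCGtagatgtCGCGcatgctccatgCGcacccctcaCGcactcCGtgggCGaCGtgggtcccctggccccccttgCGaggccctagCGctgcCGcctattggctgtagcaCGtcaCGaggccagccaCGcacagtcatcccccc
Rhox5, chrX:37754358-37754607, plus strand: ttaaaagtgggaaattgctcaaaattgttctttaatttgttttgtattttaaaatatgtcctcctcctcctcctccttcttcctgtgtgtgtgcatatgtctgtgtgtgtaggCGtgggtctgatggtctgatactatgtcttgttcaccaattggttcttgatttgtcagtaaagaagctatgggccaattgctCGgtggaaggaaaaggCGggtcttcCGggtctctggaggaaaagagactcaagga
Tex19.1, chr11:121145893-121146142, plus strand: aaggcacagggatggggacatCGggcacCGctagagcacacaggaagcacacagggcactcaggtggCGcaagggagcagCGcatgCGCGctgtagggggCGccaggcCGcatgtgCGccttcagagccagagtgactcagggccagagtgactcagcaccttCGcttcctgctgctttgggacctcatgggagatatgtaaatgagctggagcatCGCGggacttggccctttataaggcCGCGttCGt
1700013H16Rik, chrX:53757832-53758081, minus strand: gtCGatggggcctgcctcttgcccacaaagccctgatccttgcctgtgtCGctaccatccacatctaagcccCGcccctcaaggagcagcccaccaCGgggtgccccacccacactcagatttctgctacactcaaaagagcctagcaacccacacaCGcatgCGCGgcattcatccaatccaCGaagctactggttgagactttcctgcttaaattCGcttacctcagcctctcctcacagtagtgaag

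These windows held 20 CG dinucleotides in Dazl, 15 in Tex19.1, 9 in 1700013H16Rik and 4 in Rhox5. Of 27025 genes with a RefSeq promoter sequence, 17.7% had 20 or more in the same window, 27.5% had 15 or more, 40.7% had 9 or more and 61.9% had 4 or more. The 4 promoters thus ran from CG-rich to CG-poor. A promoter was matched for 5026 of the 6088 genes and for 95 of the 132 with a spread above 1. The median number of CG dinucleotides was 18 in the former and 12 in the latter, against 6 over all promoters. Of the 60 genes with clone 1 highest and clone 2 lowest, 46 were matched, with a median of 13. The letters CACGTG, an E-box, and TTCCCGC, an E2F-type motif, were searched on both strands. They occurred in 6.05% and 3.84% of all promoters, in 9.77% and 7.92% of those of the 5026 genes, and in 4 and 3 of the 95. None of the 4 windows shown held either motif. Methylation was not measured on these arrays.

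The list of 2-cell and Zscan4 genes, which are switched on for short times in a small share of pluripotent cells, had 4 of 16 measured genes above 500, with a median spread of 1.06. Tcstv1 gave 1312, 532 and 1060, AF067061 gave 2978, 1878 and 3930, Usp17la gave 2319, 1809 and 3783, and Pramel18 gave 644, 360 and 603. Clone 2 was lowest in all 4, against 36.9% of all genes. Counting also the probe sets shared by several copies, 11 probe sets of the list were above 500. Clone 2 was lowest in 10 and clone 3 highest in 9, against 36.9% and 29.1% of all genes. The probe set shared by Zscan4a, Zscan4c, Zscan4d and Zscan4f gave 9464, 6734 and 13821 (10006 ± 3574). The exception was the probe set of Gm2022, Gm5662 and Gm8300, with 1381, 2026 and 2993. Clone 3, and not clone 1 as in the germline genes, was highest at most of these probe sets. This difference rests on the probe sets shared by several copies (7 of the 11). Among the 4 single genes, clones 1 and 3 were highest in 2 each.

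The naive pluripotency list had 17 of 20 measured genes above 500, with a median spread of 0.44. Of the 17, 2 had a spread above 1 (11.8%, against 2.17% of all genes). Besides Dppa3 this was Nr0b1, the orphan receptor Dax1, with 3308, 7815 and 5261 (5461 ± 2260, spread 1.24). The T-box factor Tbx3 gave 3392, 6474 and 5244, and its second probe set gave 2113, 4438 and 3499. Tet2, a dioxygenase that oxidises methylated cytosine, gave 1718, 3251 and 2363. Esrrb gave 1890, 3280 and 2563 and Tfcp2l1 gave 3439, 5925 and 5287, and both are naive transcription factors. The second probe set of Esrrb gave 705, 997 and 681, with clone 2 highest but clone 3 lowest. On the brightest probe sets of these genes clone 2 was highest and clone 1 lowest, the reverse of Dppa3. Over the list clone 2 was highest in 12 of 17 genes and clone 1 lowest in 13, against 36.3% and 39.5% of all genes. Zfp42, known as Rex1, and Nr5a2 had the smallest spreads of the list, 0.21 and 0.25. Klf4 gave 13514, 16201 and 13957, and Myc, which was not above 500, gave 101, 210 and 279. Of the core list, Lin28a, an RNA-binding protein that blocks let-7, had the largest spread with 673, 1361 and 1242, and Tdgf1, a Nodal co-receptor, the smallest with 23110, 23958 and 23565.

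**Figure D3:**
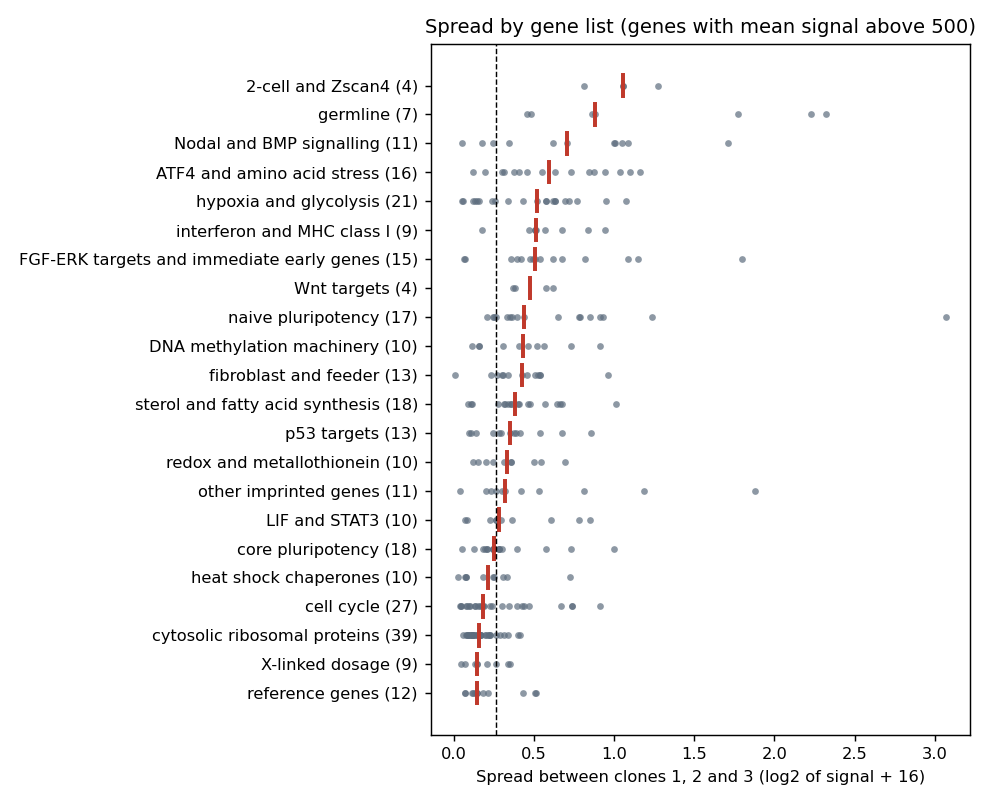
Spread of each gene (points, log2) for the 22 lists with at least 4 genes above 500, with the number of such genes in parentheses, the list's median in red and the median of all genes (0.26) as a dashed line. Medians run from 0.14 for reference genes to 1.06 for the 2-cell list.

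Genes of the signalling pathways that 3i acts on differed between clones by uneven amounts. Of the FGF-ERK list, 15 of 24 measured genes were above 500, with a median spread of 0.51. Of the 15, 3 had a spread above 1, against 2.17% of all genes. The feedback inhibitors Spry4 (373, 1334 and 602) and Dusp6 (670, 1510 and 1031) were lowest in clone 1 and highest in clone 2. Jun, an AP-1 subunit, gave 1858, 866 and 1223, the reverse order. The early genes Egr1 (13332, 12806 and 12707) and Fos (8373, 8118 and 8003) had a spread of 0.07 each. Of the Nodal and BMP list, 11 of 15 measured genes were above 500, with a median spread of 0.71. Of the 11, 4 had a spread above 1 (36.4%, against 2.17% of all genes). Skil, the SnoN repressor of SMAD signalling, gave 6812, 2071 and 3250 (4044 ± 2469). The Nodal antagonists Lefty2 (2835, 2216 and 4735) and Lefty1 (1883, 1210 and 2443) were both highest in clone 3 and lowest in clone 2. The inhibitory SMAD Smad7 gave 839, 1752 and 1182, with clone 2 highest. These 4 genes followed no single order of the clones. Over the list clone 2 was highest in 7 of 11 genes and clone 1 lowest in 6, against 36.3% and 39.5% of all genes. The LIF and STAT3 list had 10 of 12 measured genes above 500, none with a spread above 1 (2.17% of all genes). Its largest spreads were those of Lifr, the LIF receptor (813, 1476 and 1143), and Tfcp2l1, and Bcl3 and Pim3 were at 0.08 and 0.07. The Wnt list had 4 of 14 genes above 500 and none with a spread above 1 (2.17% of all genes), led by Ccnd1 (2645, 3066 and 4067).

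In the metabolic and stress lists most genes had the same clone highest or lowest. Of the ATF4 and amino acid stress list, 16 of 22 measured genes were above 500, 3 had a spread above 1 (18.8%, against 2.17% of all genes) and the median was 0.59. Chac1, which degrades glutathione, gave 439, 998 and 1002. Nupr1 gave 922, 1996 and 1617, and the arginine transporter Slc7a3 gave 2351, 4847 and 4360. Clone 1 was lowest in 13 of the 16 genes (39.5% of all genes) and highest in none (34.6% of all genes). Of the sterol and fatty acid list, 18 of 18 were above 500, with a median of 0.38, and clone 1 was highest in 16 and clone 2 lowest in 14, against 34.6% and 36.9% of all genes. Fasn, fatty acid synthase, gave 4657, 2299 and 3278, and Fdps, of the isoprenoid pathway, gave 6177, 3867 and 5015. Of the hypoxia and glycolysis list, 21 of 23 were above 500, with a median of 0.52, and clone 1 was highest in 16 and clone 3 lowest in 19, against 34.6% and 23.6% of all genes. Ndrg1, a hypoxia-responsive gene, gave 1572, 1245 and 739, and Egln3, an oxygen-sensing prolyl hydroxylase, gave 1303, 971 and 666. Aldoa and Pgam1, which encode glycolytic enzymes, had spreads of 0.05 and 0.06 on their brightest probe sets. The second probe set of Aldoa, of similar signal, gave 20343, 14885 and 17602 (spread 0.45). Clone 3 was lowest in 20 of the 21 after quantile normalisation and in 16 after scaling to a common median.

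**Figure D4:**
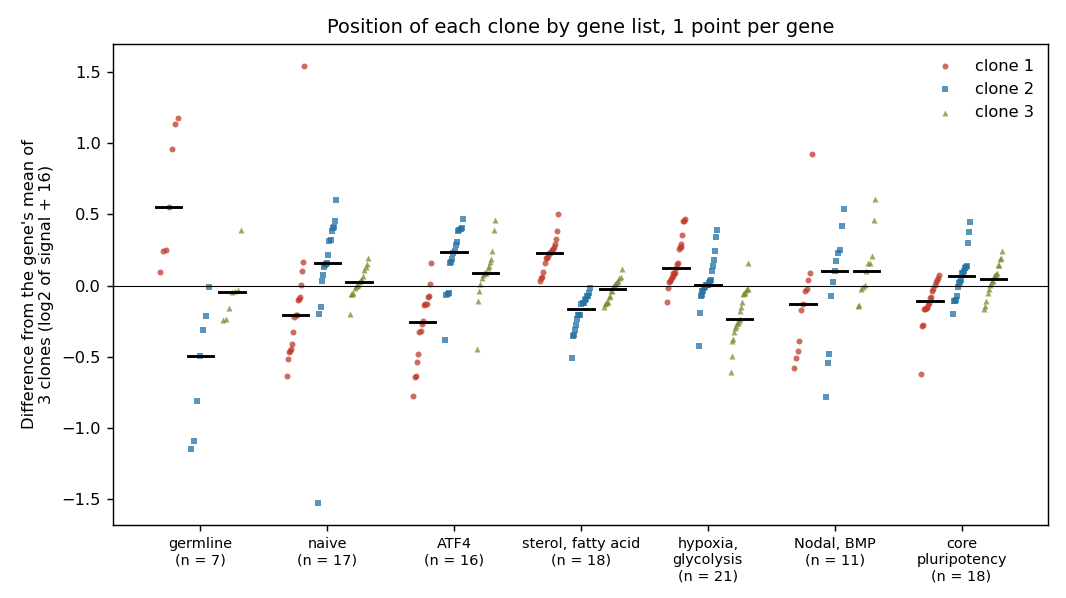
Difference of each clone from the gene's mean over the 3 clones (vertical axis, log2), with 1 point per gene and clone for 7 lists and a black bar at the median. In the germline list the medians were 0.55 for clone 1 and -0.49 for clone 2, while in the naive list they were -0.21 and 0.16.

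No gene of the p53, cell cycle, heat shock, interferon and MHC class I, redox, DNA methylation, ribosomal protein, reference or X-linked dosage lists had a spread above 1. The share over all genes was itself only 2.17%, so this absence does not set such short lists apart. The p53 list had 13 of 15 measured genes above 500, led by Pmaip1, the BH3-only protein Noxa (6437, 11653 and 8401). The cell cycle list had 27 of 28 above 500, with a median of 0.18, and its largest spread was that of Mcm2, a replication licensing helicase subunit (4650, 2461 and 4553). The heat shock list had a median of 0.21, led by Hsph1 (4609, 2781 and 4124). The interferon and MHC class I list had 9 of 17 above 500 and a median of 0.51, led by Bst2, tetherin (1459, 751 and 896), and H2-K1 (2418, 1347 and 1892). The redox list had a median of 0.33, with Mt1, a metallothionein, at 15685, 9696 and 10841. In the DNA methylation list, which had 10 of 12 measured genes above 500 and a median of 0.44, the maintenance enzyme Dnmt1 had a spread of 0.11 (3554, 3848 and 3717), Dnmt3l gave 2498, 4152 and 2716, and Tet1 gave 6027, 8629 and 7075. Ribosomal protein genes (39 of 42 above 500) and reference genes (12 of 12) had medians of 0.16 and 0.14. Clone 3 was highest in 30 of the 39 ribosomal protein genes as deposited and in 10 after quantile normalisation, so no order is given for them. X-linked genes of the dosage list (9 of 13) had a median of 0.15.

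Imprinted genes outside the Dlk1-Dio3 cluster had 11 of 34 measured genes above 500, with a median spread of 0.32. Of the 11, 2 had a spread above 1 (18.2%, against 2.17% of all genes). Grb10, an adaptor that dampens insulin signalling, gave 990, 3680 and 3159 (2610 ± 1427, spread 1.88), and its neighbour Cobl gave 554, 1282 and 1078. In both, clone 1 was lowest. Phlda2 gave 1532, 2371 and 2700, while Ube3a and Plagl1 had spreads of 0.04 and 0.20. None of the 4 measured genes of the Dlk1-Dio3 cluster was above 500.

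Along the chromosomes, 21 of 278 genes of chromosome 6 had a spread above 1 (7.55%), 18 of 516 of chromosome 11 (3.49%) and 13 of 209 of the X (6.22%), against 2.17% of all genes. Over blocks of 19 to 21 neighbouring genes, the median difference between clones 1 and 2 ran from -0.33 to 0.73 on chromosome 6 and from 0.20 to 0.40 on chromosome 11. In the 263 blocks of the other autosomes and the X it ran from -0.28 to 0.29. Clone 1 was highest in 80.2% of the genes of chromosome 11, which holds Elobl, AI662270, 2210409E12Rik, Tex19.1 and Fasn. The block of chromosome 6 that holds Dppa3 and Nanog had median differences of 0.22 between clones 1 and 2 and 0.56 between clones 1 and 3. Without chromosomes 6 and 11, 93 of 5294 genes had a spread above 1, with clone 3 in the middle in 75, clone 1 highest and clone 2 lowest in 40 and the reverse order in 35. The sterol list kept 15 genes, with clone 1 highest in 13, and the germline list 6, with clone 1 highest in 5. Expression arrays do not measure DNA copy number, the study's comparative genomic hybridisation of DNA is not used here, and the part of chromosome content in these differences was not tested.

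**Figure D5:**
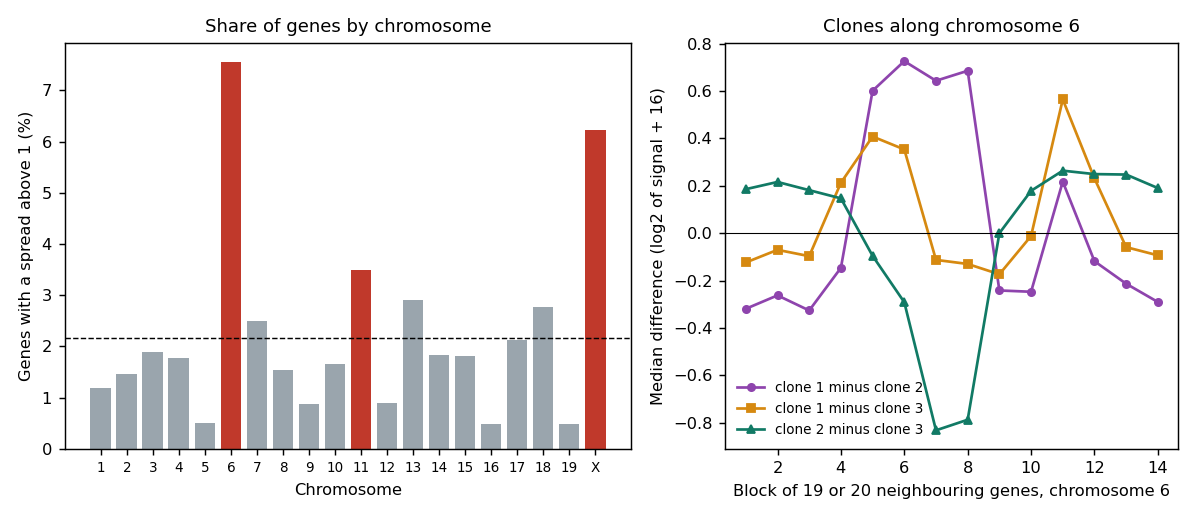
Left, share of genes with a spread above 1 on each chromosome, with the share over all genes (2.17%) as a dashed line and chromosomes 6, 11 and X in red. Right, median difference between pairs of clones (log2) in 14 blocks of neighbouring genes along chromosome 6, where clone 2 lies below clone 1 in blocks 5 to 8 by 0.60 to 0.73.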

How the data were processed

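Total RNA of the 3 (-)/(+) clones had been hybridised to Affymetrix Mouse Genome 430 2.0 arrays. The deposited values are MAS 5.0 signals, a linear intensity per probe set, which the authors had scaled so that each array has the same trimmed mean. The software version and scan dates are not given in the sources used here. Control probe sets (64 of 45101) were left out. Probe sets with a mean signal above 500 over the 3 arrays were kept, and log2(signal + 16) was taken. Genes were named from the platform annotation (34945 probe sets with 1 symbol, of which 34741 matched RefSeq), with the brightest probe set for each gene. Spread was the highest minus the lowest clone. No test was made, because each clone has 1 array. Members and gene lists were chosen with earlier results of these data known. Named genes were the 20 with the largest and the 5 with the smallest spread, up to 4 with the largest and 2 with the smallest spread of each list, Pou5f1, Sox2, Klf4, Nanog, Myc, Xist and Y-linked genes. Other genes that are named (Klhl13, Marcks, Zfp991 and Kif22, fibroblast genes below 500, Esrrb, further genes of chromosomes 6 and 11, probe sets of several genes) were chosen after their values were seen. The spread statistic was tested on simulated data. Alternatives were other pseudocounts (1 and 64), quantile normalisation, a common median, thresholds of 250, 1000 and 500 on each array, an average over every probe set of each gene, omission of cross-hybridising probe sets and omission of each clone. Omission of chromosomes 6 and 11 was chosen after seeing the data. Analyses used Python 3 with pandas and numpy.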

Additional observations from a re-analysis of the deposited data

How the results depend on the processing

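Of the 132 genes with a spread above 1, 132 were also above 1 with a pseudocount of 1, 109 with a pseudocount of 64, 130 after quantile normalisation, 130 once the arrays shared a common median, and 115 when every probe set of each gene was averaged. None of the 20 genes with the largest spread changed its order of clones under any of these settings. Clone 3 held the middle value in 71.5% to 80.6% of the genes above 1 under every setting that kept 3 clones. Counts followed the threshold on signal, since it sets how many genes are counted. With a mean above 250 there were 388 probe sets and 221 genes with a spread above 1. The probe sets more than 2-fold apart were then 200 for clone 1 over 2, 101 for 2 over 1, 69 for 1 over 3, 31 for 3 over 1, 33 for 2 over 3 and 89 for 3 over 2. With a mean above 1000, 6689 probe sets remained, with 130 probe sets and 80 genes above 1, and the pairs in the same sequence gave 65, 38, 20, 9, 8 and 37. With every array above 500, clone 1 over 2 gave 73, 1 over 3 gave 16, 3 over 1 gave 10, 2 over 3 gave 10 and 3 over 2 gave 34. Without cross-hybridising probe sets, clone 2 over 3 gave 9. Without chromosomes 6 and 11, clone 1 over 3 gave 22 and clone 3 over 2 gave 36. With 1 clone left out, a spread over the other clones can only be smaller, and the counts ran from 51 to 171 probe sets and from 31 to 103 genes, lowest without clone 2 and highest without clone 3 (42 genes without clone 1). The number of lists whose median spread was above that of all genes was 20, and 17 to 21 under the alternatives. This was counted over all 29 lists, short ones included. The Dlk1-Dio3 and mesoderm lists had no gene above 500 and so no median. The 20 took in lists with fewer than 4 genes above 500. These were primed pluripotency and trophectoderm with 1 gene each, and endoderm and Y-linked with 2 each. No paired analysis was made, since the clones belong to 1 group and have 1 array each.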

Other observations

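Some genes outside the lists had clone 1 highest and clone 2 lowest, and they are named here after their values were seen. That order held in 60 of the 132 genes with a spread above 1 (45.5%) and in 22.6% of all genes. Others of the 132 went other ways, among them Lrrc34 (1802, 4591 and 2172), Cox6b2 (1066, 2194 and 1285) and Stk31 (851, 498 and 388). Stra8, a retinoic acid target that marks entry into meiosis, gave 2987, 1119 and 1563 in clones 1, 2 and 3. Sohlh2, a transcription factor of germ cells, gave 1271, 495 and 813. Fmr1nb, an X-linked gene of the testis, gave 2308, 778 and 1860, and Khdc3, a subunit of the oocyte's maternal complex, gave 885, 307 and 400. Uba1y, the Y-linked ubiquitin-activating enzyme and one of the 20 genes with the largest spread, gave 1754, 430 and 900, while the Y-linked Eif2s3y differed by a spread of 0.30.

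Genes with a mean signal of 500 or less could also differ widely. Of the Dlk1-Dio3 cluster, the maternally expressed RNA Meg3 gave 389, 40 and 99 and Rian gave 217, 48 and 84, with clone 1 highest in both, whereas the paternally expressed Dlk1 gave 241, 214 and 302, with clone 3 highest. The imprinted Mest gave 625, 69 and 527, and it lies on chromosome 6. Cdkn1c, a cyclin-dependent kinase inhibitor that is imprinted, gave 295, 111 and 230. Lef1, a nuclear partner of β-catenin, gave 890, 266 and 260. The signals of Meg3, Rian, Mest and Cdkn1c in clone 2, from 40 to 111, lie close to the median of all probe sets on that array, 75.4. That of Dlk1 (214) lies above it.

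Further genes with a spread above 1 followed other orders. Trh, the precursor of thyrotropin-releasing hormone, was highest in clone 3 with 593, 585 and 1547, and Cth, which makes cysteine, was highest in clone 2 with 3098, 7466 and 6119.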
